A study of Mus musculus with 8 samples.

Results

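C-type lectin receptors are surface proteins with which myeloid cells bind sugars and lipids of fungi, mycobacteria and damaged cells. The set described here holds 8 of the 23356 genes in the expression table: Clec4d, Clec4e, Clec4n, Clec7a, Clec5a, Clec10a, Clec12a and Clec4a2. They were chosen by gene symbol as myeloid members of the family, under the label "activating", and all 8 reached at least 1 FPKM (fragment counts scaled to transcript length and library size) in at least 1 group. Activating receptors of this kind signal through an immunoreceptor tyrosine-based activation motif (ITAM), which they carry in a shorter form themselves or borrow from an adaptor protein. The kinase Syk then engages the Card9, Bcl10 and Malt1 complex, which leads to cytokine expression. Inhibitory relatives carry an immunoreceptor tyrosine-based inhibitory motif (ITIM), which recruits phosphatases.

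That label fits 5 of the 8 genes. Clec4d (MCL), Clec4e (Mincle) and Clec4n (Dectin-2) use the adaptor FcRγ, Clec7a (Dectin-1, a receptor for fungal β-glucan) has its own ITAM-like sequence, and Clec5a (MDL-1) uses DAP12 and DAP10. Clec12a and Clec4a2 (DCIR) have ITIMs and are known as inhibitory receptors, and Clec10a is an endocytic receptor for galactose-type sugars. The genes are therefore described below as 5 ITAM-coupled, 2 inhibitory and 1 endocytic receptor.

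Dendritic cells (DCs) were grown from the bone marrow of adult mice on a C57BL/6 background (C57BL/6N in the methods) with GM-CSF and IL-4. They came from WT mice or from GEF-H1-/- mice, which lack the microtubule-bound exchange factor GEF-H1, encoded by Arhgef2, in all cells. Cells were left untreated (control) or received ansamitocin-P3, a maytansinoid that destabilizes microtubules, at 100 nM for 5 h. The 4 groups comprised 2 libraries each, and the table holds a pooled FPKM value of each group for every gene, together with the bounds of a 95% interval computed by Cuffdiff.

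Because the values are pooled, no difference below has a replicate check, an SD or a p-value. A gene was counted as past 2-fold when the log2 ratio of FPKM + 1 was over 1 or under -1, and the intervals of groups are called apart when they do not overlap. Arhgef2 itself stood at 42.3 FPKM (interval 34.5 to 50.0) in control WT and 45.9 (36.9 to 54.9) in treated WT DCs. In GEF-H1-/- DCs it stood at 4.59 (3.54 to 5.63) without and 4.16 (3.22 to 5.11) with the drug, in the direction the labels give.

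In control WT DCs the 8 receptors spanned a wide range of levels. Clec7a (361 FPKM, 293 to 430) and Clec4n (303 FPKM, 248 to 357) led with overlapping intervals, at ranks 221 and 260 among 11397 genes with at least 1 FPKM in some group. Clec12a (99.5 FPKM, 75.02 to 120) came next, with its interval apart from both neighbours in this order. Clec5a (52.0 FPKM), Clec4a2 (40.4 FPKM) and Clec10a (37.1 FPKM) followed, with overlapping intervals between neighbours in this order. Clec4d (7.72 FPKM) and Clec4e (4.49 FPKM) were the lowest, and the intervals of this pair were apart.

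The order was the same in control GEF-H1-/- DCs and differed in both treated groups. In treated WT DCs Clec7a and Clec4n led with intervals apart, and Clec4d moved from place 7 to place 3, where its interval overlapped that of Clec5a. Clec4a2 was then the lowest of the 8, with its interval apart from that of Clec4e. In treated GEF-H1-/- DCs Clec7a and Clec4n again came first and Clec4d and Clec4e last.

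Clec4d and Clec4e, neighbouring genes whose products form a receptor complex for mycobacterial cord factor, showed the widest differences. Clec4d was at 7.72 FPKM (5.81 to 9.61) without and 79.5 FPKM (63.9 to 95.1) with the drug in WT DCs, and at 17.6 FPKM (14.1 to 21.2) without and 23.9 FPKM (19.1 to 28.6) with it in GEF-H1-/- DCs. Treated WT DCs were thus above the other 3 groups, with intervals apart. The treated to control ratio was 10.3 for WT and 1.35 for GEF-H1-/- DCs, which on the log2 scale of FPKM + 1 was 3.21 and 0.42. The intervals of control and treated cells overlapped in GEF-H1-/- DCs.

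Clec4e was at 4.49 FPKM (3.24 to 5.65) without and 36.9 FPKM (28.7 to 44.5) with the drug in WT DCs, and at 6.68 FPKM (4.89 to 8.25) without and 11.5 FPKM (8.67 to 14.3) with it in GEF-H1-/- DCs. Here the drug-treated group was higher, with intervals apart, in both genotypes. The treated to control ratio was 8.21 for WT and 1.72 for GEF-H1-/- DCs (log2 2.79 and 0.70). The ratio of Clec4d to Clec4e FPKM lay between 1.72 in control WT and 2.64 in control GEF-H1-/- DCs, so that Clec4d was the more abundant of the pair in each group.

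Clec4n, a receptor for fungal mannans, was at 303 FPKM (248 to 357) without and 708 FPKM (557 to 860) with the drug in WT DCs, and at 268 FPKM (216 to 321) without and 372 FPKM (297 to 446) with it in GEF-H1-/- DCs. The ratio was 2.34 for WT with intervals apart and 1.38 in GEF-H1-/- DCs with overlapping intervals. Clec7a was at 361 FPKM (293 to 430) without and 1150 FPKM (916 to 1384) with the drug in WT DCs, and at 397 FPKM (322 to 471) without and 582 FPKM (472 to 692) with it in GEF-H1-/- DCs. Its ratio was 3.18 for WT and 1.47 for GEF-H1-/- DCs, and the intervals were apart in both genotypes, by a narrow margin in GEF-H1-/- DCs (471 against 472 FPKM). In treated WT DCs Clec7a ranked 92 among the 11397 genes.

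Clec5a, a receptor that binds dengue virus and bacterial sugars, did not share this pattern. It was at 52.0 FPKM (41.2 to 62.7) without and 67.4 FPKM (55.0 to 79.8) with the drug in WT DCs, and at 67.9 FPKM (53.9 to 81.8) without and 100 FPKM (80.2 to 120) with it in GEF-H1-/- DCs. The intervals of control and treated cells overlapped in both genotypes, and the highest level was in treated GEF-H1-/- rather than treated WT DCs. The table gives Clec5a a locus that it shares with 7 other genes, from position 40529091 to 40910666 of chromosome 6, while the RefSeq gene spans 40574898 to 40585805.

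**Figure D1:**
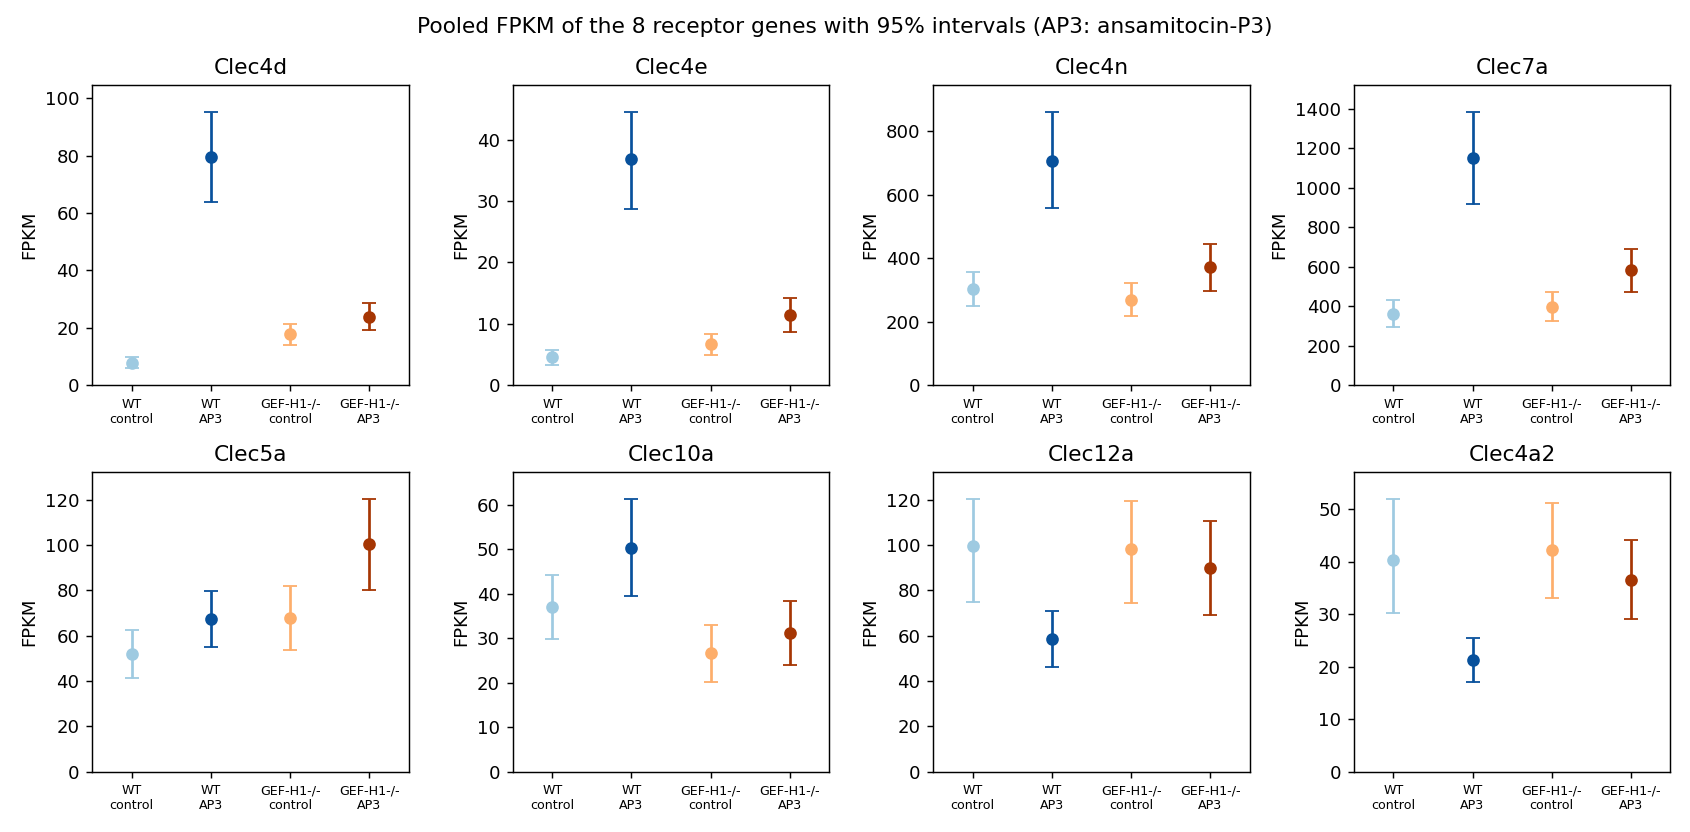
FPKM of each receptor gene (vertical axis, from 0) in control and ansamitocin-P3-treated (AP3) WT and GEF-H1-/- DCs. Points are the pooled values and bars the 95% intervals of Cuffdiff. Clec4d, Clec4e, Clec4n and Clec7a are highest in treated WT DCs, Clec12a and Clec4a2 are lowest there, and Clec5a is highest in treated GEF-H1-/- DCs.

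The inhibitory receptors went the other way in WT DCs. Clec12a, which binds uric acid crystals, was at 99.5 FPKM (75.02 to 120) without and 58.5 FPKM (46.1 to 71.0) with the drug in WT DCs, and at 98.3 FPKM (74.5 to 119) without and 90.1 FPKM (69.0 to 111) with it in GEF-H1-/- DCs. Clec4a2 was at 40.4 FPKM (30.2 to 51.9) without and 21.3 FPKM (17.1 to 25.4) with the drug in WT DCs, and at 42.3 FPKM (33.1 to 51.3) without and 36.6 FPKM (29.0 to 44.1) with it in GEF-H1-/- DCs. For both genes the treated WT interval lay below the control WT interval, and the intervals overlapped in GEF-H1-/- DCs. Neither was past 2-fold (log2 -0.76 and -0.90 in WT, -0.13 and -0.20 in GEF-H1-/- DCs).

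Clec10a was at 37.1 FPKM (29.96 to 44.3) without and 50.4 FPKM (39.4 to 61.4) with the drug in WT DCs, and at 26.6 FPKM (20.3 to 33.0) without and 31.2 FPKM (24.0 to 38.4) with it in GEF-H1-/- DCs. Control and treated intervals overlapped in both genotypes. Its close relative Mgl2 was 22.4 to 31.8 times as abundant as Clec10a in the 4 groups. Reads of 35 bases may be shared between such relatives: 13.4% of the 35-base stretches of the annotated protein-coding transcripts of Clec10a also occur in another gene, mostly Mgl2, and 9.29% of those of Clec4a2, so the values of these genes are less certain. The share was at most 1.997% for the other 6 receptors.

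Set against the whole table, 4 of the 8 receptors (Clec4d, Clec4e, Clec4n and Clec7a) were past 2-fold higher with the drug in WT DCs, where 3.66% of the 11397 genes were. The same 4 had treated intervals above control, as did 9.19% of genes, and 2 of 8 (Clec12a and Clec4a2) had treated intervals below control, as did 7.58%. In GEF-H1-/- DCs no receptor was past 2-fold higher, against 0.807% of genes, and 2 of 8 (Clec4e and Clec7a) had treated intervals above control, against 2.75%. The receptors had a median log2 drug change of 0.83 in WT DCs and 0.44 in the knockout, while that of all genes tested was 0.00 and -0.01. These members were chosen with results known, so the counts describe them and are no test of the set.

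How far the drug change differed by genotype can be read from the same values. This difference was 2.79 on the log2 scale for Clec4d, and the outermost bounds of the 4 intervals allow 1.64 to 3.97. For Clec4e it was 2.09 (0.79 to 3.36). These were the receptors for which this range left out 0. For Clec7a the difference was 1.12 (-0.01 to 2.23) and for Clec4n 0.76 (-0.40 to 1.90). Adding the interval widths in quadrature, an alternative chosen after the values were seen, gives narrower ranges of 0.55 to 1.68 for Clec7a and 0.18 to 1.33 for Clec4n, which leave out 0.

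In all, 3 of 8 receptors (Clec4d, Clec4e and Clec7a) had a difference over 1, against 1.36% of genes. Clec4d kept 12.9% of its WT log2 change in GEF-H1-/- DCs, Clec4e 25.2%, Clec7a 33.1% and Clec4n 38.3%. Among all 417 genes past 2-fold higher in WT DCs the median share kept was 41.6%, with quartiles of 27.7% and 55.6%. Genes picked for a high WT value have a lower share by construction. By these quartiles, Clec4d and Clec4e lay under the lower quartile and Clec7a and Clec4n between the quartiles. For Clec12a and Clec4a2 the difference was -0.63 (-1.93 to 0.70) and -0.69 (-1.95 to 0.56), and for Clec5a -0.19 (-1.33 to 0.97), with 0 inside each of these outermost ranges. The quadrature range left out 0 for Clec4a2 (-1.32 to -0.06) and held it for Clec12a (-1.29 to 0.03) and Clec5a (-0.76 to 0.39).

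**Figure D2:**
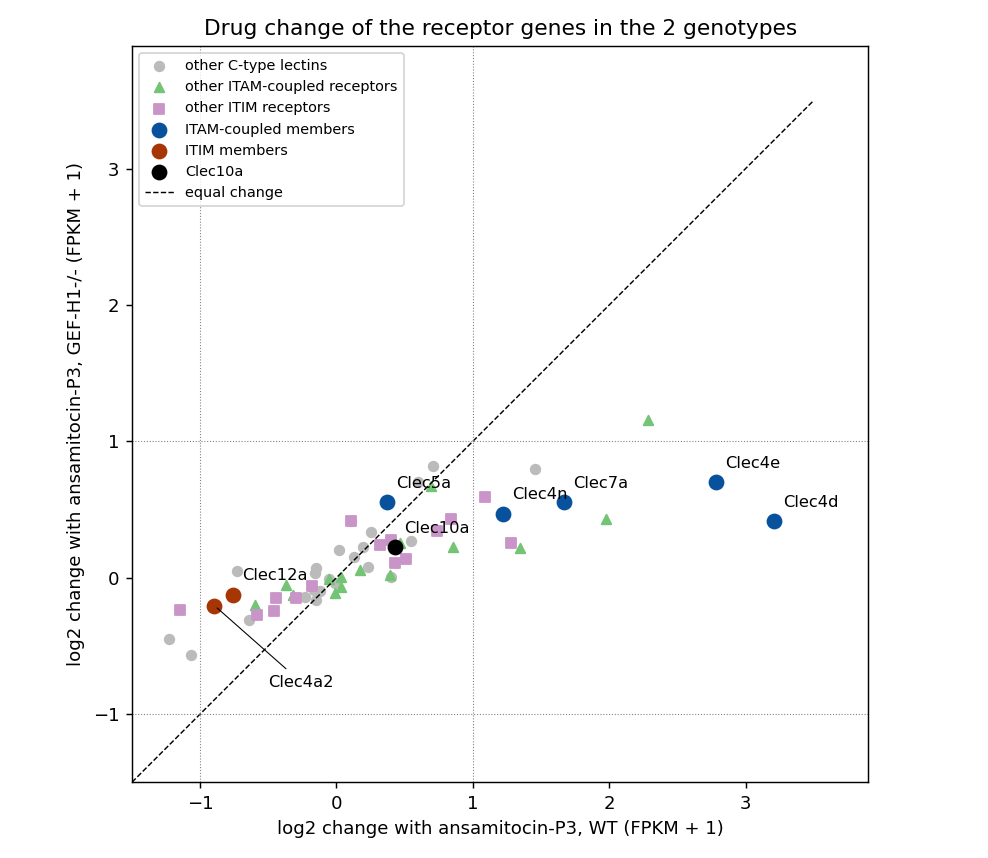
Log2 change of FPKM + 1 with ansamitocin-P3 in WT (horizontal axis) and GEF-H1-/- DCs (vertical axis) for the 8 receptors and for other C-type lectin, ITAM-coupled and ITIM receptors with at least 1 FPKM. The dashed line marks equal change and dotted lines a log2 change of 1 or -1. Clec4d (3.21 and 0.42) and Clec4e (2.79 and 0.70) lie farthest below the line of equal change.

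Before treatment, Clec4d was the receptor that differed most by genotype. It was at 7.72 FPKM in control WT and 17.6 FPKM in control GEF-H1-/- DCs, a ratio of 2.29 with intervals apart. It was the 1 receptor of 8 that was past 2-fold higher, against 1.26% of genes, and the 1 with its interval above WT, against 2.86%. The intervals of the other 7 receptors overlapped between the control groups. When 5 FPKM was added before the log instead of 1, the log2 difference of Clec4d was 0.83 and no receptor was past 2-fold.

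After treatment, 5 of 8 receptors (Clec4d, Clec4e, Clec4n, Clec7a and Clec10a) had GEF-H1-/- intervals below WT, as did 6.73% of genes, and 2 of 8 (Clec5a and Clec4a2) had them above, as did 7.02%. Past 2-fold lower were 2 of 8, Clec4d (log2 -1.70) and Clec4e (log2 -1.60), against 2.06% of genes. Clec7a (log2 -0.98) and Clec4n (log2 -0.93) lay just inside that limit. The intervals of Clec12a overlapped. The comparisons share groups, so the low control WT and high treated WT values of Clec4d enter several of them.

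Within the set, the balance of ITAM-coupled and inhibitory receptor mRNA differed accordingly. The summed FPKM of the 5 ITAM-coupled receptors was 728 without and 2042 with the drug in WT DCs and 757 without and 1089 with it in GEF-H1-/- DCs. That of the 2 inhibitory receptors was 140, 79.8, 141 and 127 FPKM in the same order. The ratio of these sums was 5.20 and 5.39 in control WT and GEF-H1-/- DCs, 25.6 in treated WT and 8.60 in treated GEF-H1-/- DCs. Clec7a alone made up 49.6% to 56.3% and Clec4n 34.1% to 41.6% of the ITAM-coupled sum, so these sums mostly follow these genes. The ITAM-coupled sum covers 5 genes and does not stand for other receptors that couple to ITAMs. The inhibitory sum covers 2 genes and does not stand for other ITIM receptors. Of 15 other ITIM receptors measured, 2 were past 2-fold higher with the drug in WT DCs and 1 lower, against 3.66% and 1.28% of genes. Their median log2 change was 0.32, and Lilrb4, among the higher, was at 203 FPKM in control and 433 FPKM in treated WT DCs.

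Of the 8 genes, 7 lie on chromosome 6 (mm10), in separate stretches, and Clec10a lies on chromosome 11 from position 70166623 to 70170836. Clec4a2 (123122690 to 123143999), Clec4n (123229843 to 123247024), Clec4d (123262107 to 123275268) and Clec4e (123281789 to 123289871) belong to a stretch of 368 kb with 9 C-type lectin genes in the table. In WT DCs the drug changes were split by position within it. Going from Clec4a1 towards Clec4e, the log2 changes were -1.07 for Clec4a1, -1.23 for Clec4a3, -0.73 for Clec4b1, -0.90 for Clec4a2, -0.15 for Clec4b2, 1.22 for Clec4n, 3.21 for Clec4d and 2.79 for Clec4e, while Clec4a4 was under 1 FPKM. The 4 expressed genes at one end had treated intervals below control, the 3 at the other end had them above, and those of Clec4b2 between them overlapped.

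Of the genes that were lower, Clec4a1, Clec4a3 and Clec4a2 encode DCIR-type receptors, of which Clec4a2 has an ITIM and the others are described as having none. Clec4b1 encodes DCAR, a receptor without an ITIM that couples to FcRγ as do those at the other end. The genes that were lower were therefore not all of the inhibitory type. In GEF-H1-/- DCs the changes along the stretch ran from -0.57 for Clec4a1 to 0.70 for Clec4e. Clec12a (129350244 to 129365303) and Clec7a (129461591 to 129472777) lie in another stretch of chromosome 6. There the log2 change in WT DCs was -0.76 for Clec12a, 0.25 for Clec1b, 1.67 for Clec7a and 1.46 for Olr1, a receptor for oxidized lipoprotein, while Clec12b, Clec9a and Clec1a were under 1 FPKM.

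**Figure D3:**
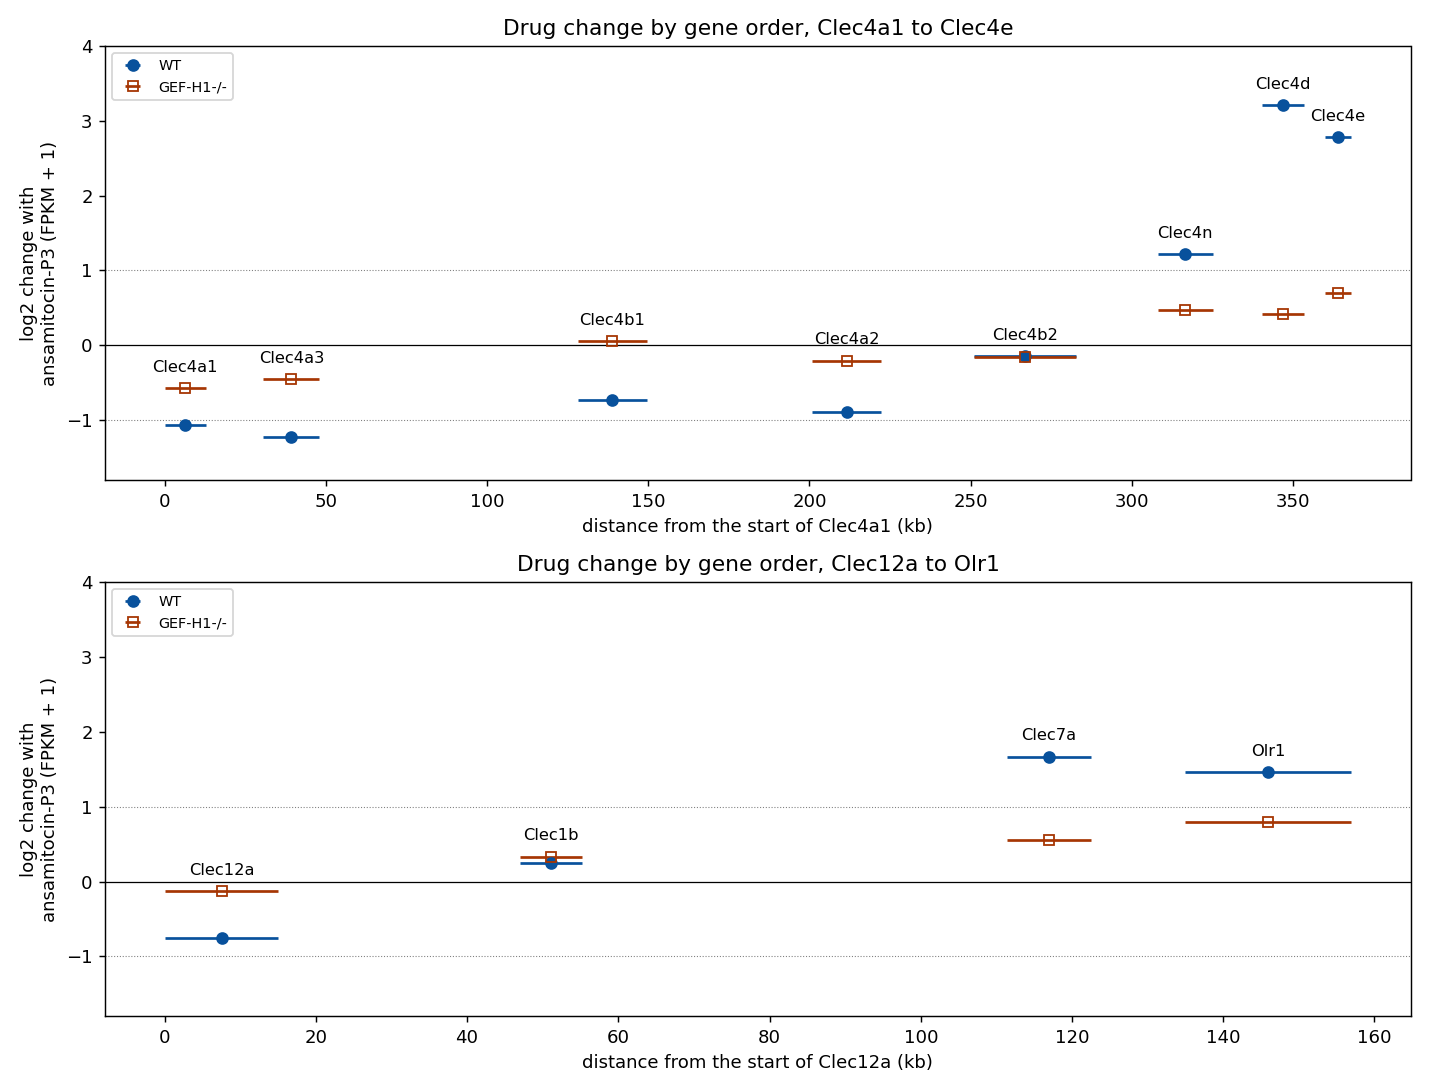
Log2 change of FPKM + 1 with ansamitocin-P3 (vertical axis) against the distance in kb from the start of Clec4a1 (top) or Clec12a (bottom), for genes with at least 1 FPKM. Filled circles are WT and open squares GEF-H1-/- DCs, horizontal bars span each gene, and dotted lines mark 1 and -1. In the top panel the WT values range from -1.23 at Clec4a3 to 3.21 at Clec4d.

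RefSeq promoters (GRCm38.p6) were at hand for 6 of the 8 genes, all but Clec4n and Clec10a. The 250 bases before the RefSeq start are shown for 3 receptors because all were higher with the drug in WT DCs. They are at chr6:123261857-123262106 (plus strand) for Clec4d, chr6:123289872-123290121 (minus) for Clec4e and chr6:129472780-129473029 (minus) for Clec7a, and hold no exon annotated by Gencode, while 6 bases of that of Clec7a are in the RefSeq gene span. The windows of the inhibitory receptors are not printed because they hold untranslated exon by Gencode. That of Clec12a, chr6:129349994-129350243, lies inside the RefSeq gene span, which begins at 129349783, and all its 250 bases are such exon. Of that of Clec4a2, chr6:123122440-123122689, 68 bases are. Capitals mark matches on either strand to the AP-1 pattern TGANTCA, the C/EBP pattern TTNNGNAA or the PU.1 pattern GAGGAA, and the NF-kB and CArG patterns were searched as well.
Clec4d: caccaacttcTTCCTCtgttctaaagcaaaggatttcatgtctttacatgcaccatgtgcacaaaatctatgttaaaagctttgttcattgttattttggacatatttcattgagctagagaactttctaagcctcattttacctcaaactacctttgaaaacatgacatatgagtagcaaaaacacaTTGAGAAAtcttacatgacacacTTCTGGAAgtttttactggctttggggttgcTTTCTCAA
Clec4e: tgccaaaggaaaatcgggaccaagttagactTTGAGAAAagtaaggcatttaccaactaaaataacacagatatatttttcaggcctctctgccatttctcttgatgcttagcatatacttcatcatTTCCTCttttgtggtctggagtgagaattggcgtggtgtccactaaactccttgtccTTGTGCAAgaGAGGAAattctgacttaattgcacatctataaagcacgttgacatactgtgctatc
Clec7a: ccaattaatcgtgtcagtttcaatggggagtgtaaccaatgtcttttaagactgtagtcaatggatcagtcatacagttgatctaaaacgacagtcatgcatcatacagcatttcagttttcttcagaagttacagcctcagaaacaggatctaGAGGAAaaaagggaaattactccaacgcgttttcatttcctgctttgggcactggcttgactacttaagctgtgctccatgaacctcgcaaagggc

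Over all 6 windows, that of Clec12a included, the C/EBP pattern occurred in 5 of 6 receptor promoters, all but that of Clec7a, and in 36.8% of all 32851 promoters of the same length. The PU.1 pattern occurred in 5 of 6, all but that of Clec4a2, and in 23.3% of all. AP-1 matched in Clec12a alone, against 6.75% of all, and NF-kB (7.25% of all) and CArG (1.47% of all) in none of the 6. These forms of the C/EBP and PU.1 patterns were settled after the receptor promoters had been read. The stricter forms considered first, TTGCNNAA and GAGGAAG, occurred in 2 of 6 (Clec4e and Clec12a) and 3 of 6 (Clec4d, Clec5a and Clec12a), against 9.56% and 10.6% of all promoters. Both forms thus matched receptors that were higher and receptors that were lower with the drug. Among the lower ones, the PU.1 and stricter C/EBP matches were in Clec12a alone, as was the AP-1 match. The Clec12a window is all untranslated exon, so these matches cannot compare promoters of higher and lower receptors. A match is a run of letters, not a bound site.

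The genes with the most similar profile were sought by the distance between centred log2 values of FPKM + 1 over the 4 groups, among genes with at least 5 FPKM in some group. For Clec4d these were Il1rn (distance 0.20), which encodes the interleukin-1 receptor antagonist, Clec4e (0.44) and Thbs1 (0.53). Il1rn was at 101 FPKM without and 778 with the drug in WT DCs and 197 without and 274 with it in GEF-H1-/- DCs. For Clec4e they were Il1a (0.22), Smox (0.26) and Il1rn (0.35). Both receptors thus had an interleukin-1 family gene as their nearest neighbour.

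For Clec7a the nearest were Rbpms2 (0.10), Timp3 (0.10) and Phldb1 (0.13), and for Clec4n Itgb1 (0.05), Tes (0.06) and Rnf24 (0.06). Clec5a was closest to Sox4 (0.11), Itgax (0.13), the gene of the DC integrin CD11c, and Sc4mol (0.14). Clec10a was closest to Nckap1 (0.06), S100a10 (0.08) and Lpxn (0.08). For Clec12a they were Tfb1m, Qrsl1 and 6030458C11Rik (0.05 to 0.06) and for Clec4a2 Ppip5k2, Ptplad2 and Dnph1 (0.04 to 0.06). Among the receptors themselves, the closest pairs were Clec12a with Clec4a2 (0.16), Clec4n with Clec7a (0.34) and Clec4d with Clec4e (0.44). With 4 values per gene, many genes can come this close.

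The genes of the adaptors and of the signalling path were measured as well. Fcer1g (FcRγ) was at 594 FPKM without and 699 with the drug in WT DCs and 564 without and 560 with it in GEF-H1-/- DCs. Tyrobp (DAP12) was at 605, 762, 815 and 831 FPKM and Hcst (DAP10) at 18.9, 22.8, 26.1 and 27.0 FPKM in the same order. None of the 3 adaptors was past 2-fold or had intervals apart in any comparison, and the values of Hcst and, in 3 groups, Fcer1g lay above their own Cuffdiff interval, so that this error is uncertain for them.

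Of 20 genes of the Syk and Card9 pathway, 1 was past 2-fold higher and none lower with the drug in WT DCs. Over all genes the shares were 3.66% and 1.28%. On the log2 scale their median was -0.07 for WT and -0.04 for GEF-H1-/- DCs, against 0.00 and -0.01 over all genes. Treated WT intervals were above control for 3 of the 20 (Malt1, Bcl10 and Vav3) and below for 2, against 9.19% and 7.58% of all genes. The 1 gene past 2-fold was Malt1, the paracaspase of the complex, at 45.3 FPKM (36.2 to 54.5) in control and 105 FPKM (85.3 to 125) in treated WT DCs, and at 43.2 and 71.5 FPKM in control and treated GEF-H1-/- DCs. Its partner Bcl10 was just inside the limit (34.3 and 69.2 FPKM in WT, log2 0.99, and 31.4 and 40.7 FPKM in GEF-H1-/- DCs). Both had the same order of groups as Clec4n. Card9 (41.3 and 36.7 FPKM) and Syk (53.1 and 63.5 FPKM) were near their control values in WT DCs.

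Blnk, an adaptor of Syk signalling, was at 18.0 FPKM without and 9.05 with the drug in WT DCs and 22.3 without and 21.5 with it in GEF-H1-/- DCs. It was the 1 pathway gene past 2-fold between the treated groups (log2 1.16, higher in GEF-H1-/- DCs). Of all genes, 2% were past 2-fold higher and 2.06% lower there. The most abundant pathway gene was Prkcd, a kinase between Syk and Card9 (476.1 FPKM in control WT DCs). None of the 5 phosphatase and Cbl genes that limit such signals was past 2-fold in any comparison. Ptpn6, which encodes the phosphatase SHP-1 that ITIMs recruit and was the most abundant of them, was at 169 FPKM in control and 101 FPKM in treated WT DCs, and its intervals of 129.7 to 206 and 74.2 to 129.6 FPKM were just apart.

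**Figure D4:**
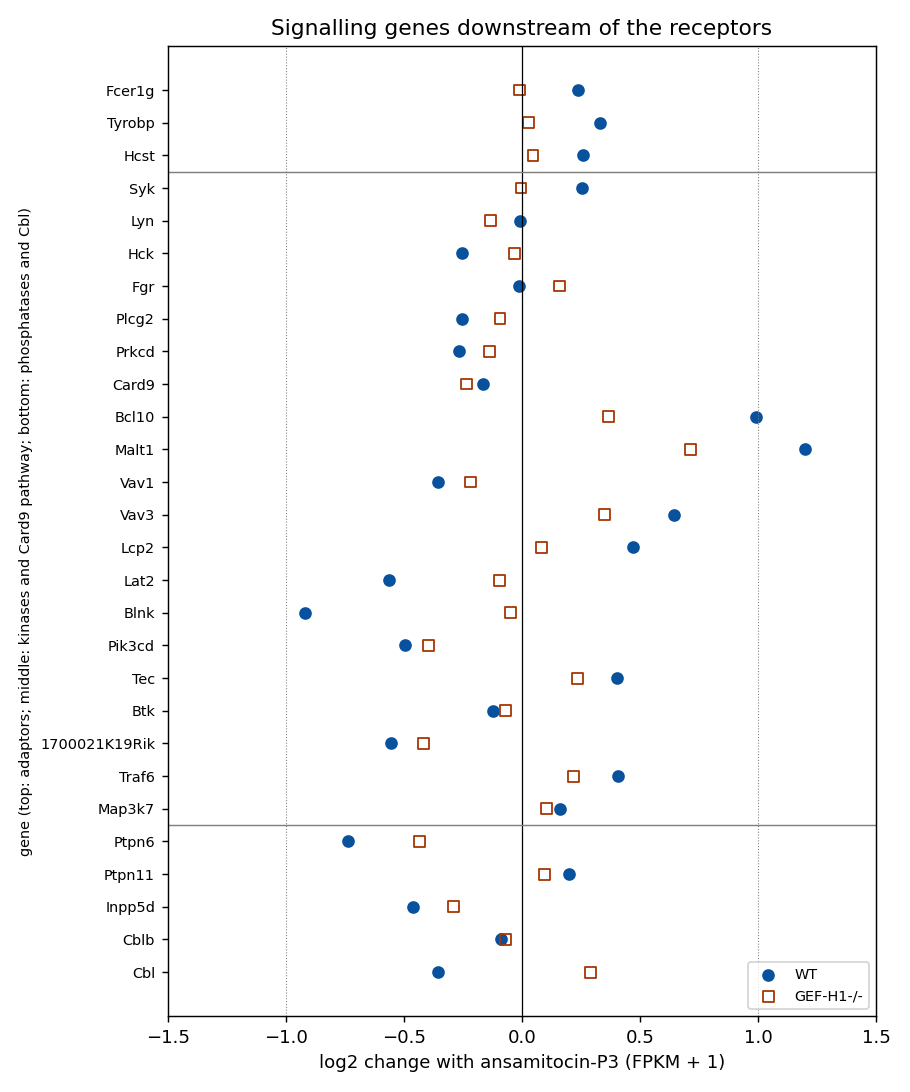
Log2 change of FPKM + 1 with ansamitocin-P3 (horizontal axis) for the 3 adaptors (top), 20 Syk and Card9 pathway genes (middle) and 5 phosphatase and Cbl genes (bottom). Filled circles are WT and open squares GEF-H1-/- DCs, and dotted lines mark 1 and -1. Malt1 lies beyond the line at 1 in WT DCs and Bcl10 (0.99) on it.

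Of 17 genes listed as outputs of this signalling or as inflammasome genes, 13 reached 1 FPKM. With the drug in WT DCs 4 of these were past 2-fold higher and 1 lower, against 3.66% and 1.28% of all genes. In GEF-H1-/- DCs 3 of the 13 (Cxcl2, Il1b and Il6) were past 2-fold higher, against 0.807%. The 4 in WT DCs were Cxcl2 (3.68 and 63.4 FPKM in control and treated WT, 5.36 and 17.0 FPKM in control and treated GEF-H1-/- DCs), Il1b (25.2 and 242, 22.8 and 56.2 FPKM), Il6 (11.4 and 77.7, 12.9 and 41.0 FPKM) and Ptgs2 (0.31 and 3.93, 0.78 and 1.66 FPKM). These genes answer to many receptors and say nothing of which one was engaged. The 1 lower gene was Pycard, the inflammasome adaptor (100 and 46.8 FPKM in WT, 111 and 86.2 FPKM in GEF-H1-/- DCs). Egr3 was past 2-fold lower in control GEF-H1-/- than control WT DCs (1.2 against 3.9 FPKM).

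Other receptor genes held some that went either way. Of 45 other C-type lectin genes in the table, 23 reached 1 FPKM, with 1 past 2-fold higher (Olr1) and 2 lower (Clec4a1 and Clec4a3) in WT DCs and a median log2 change of -0.01. Mgl2, the most abundant of them, was at 831 and 1212 FPKM in control and treated WT DCs with overlapping intervals. Of 15 other measured receptors listed as coupling to ITAMs, 3 were past 2-fold higher in WT DCs (Trem1, Cd300lb and Cd300ld) and the median was 0.17. Klrk1, 1 of the 15, is a C-type lectin counted in both lists. Clec4b1, which also couples to FcRγ, was counted with the C-type lectins alone. It was at 18.1 FPKM in control and 10.5 FPKM in treated WT DCs (log2 -0.73), with intervals apart. Of 15 measured ITIM receptors, 2 were past 2-fold higher (Cd300a and Lilrb4), 1 lower (Lair1), and the median was 0.32. The list as first drawn up also held Clec4a1 and Clec4a3, with which 3 of 17 were lower and the median was 0.11. Over all genes 3.66% were past 2-fold higher and 1.28% lower. No test sets the 8 genes apart from these lists.

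The identity of the cells bears on every value. Fewer cells of a type and less RNA per cell cannot be told apart in such bulk samples. All 11 DC markers reached 1 FPKM, led by Cd74 (3676 FPKM in control WT DCs), while Flt3 was at 1.1 to 2.6 FPKM. The summed FPKM of these markers was 5180 without and 6813 with the drug in WT DCs and 4409 without and 4894 with it in GEF-H1-/- DCs. Ccr7 was past 2-fold higher in WT DCs (258 and 602 FPKM, log2 1.22, and 0.79 in GEF-H1-/- DCs). Treated WT intervals of Ciita (23.4 and 11.3 FPKM), Cd209a and Flt3 were below control. Neutrophil markers were also abundant, and neutrophils are known to express Clec4d, Clec4e, Clec5a, Clec7a and Clec12a.

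All 11 neutrophil markers in the table reached 1 FPKM, led by S100a8 (19401 FPKM in control WT DCs), whose values lie above their own intervals. Their sum was 32650 FPKM without and 38593 with the drug in WT DCs and 22118 without and 22532 with it in GEF-H1-/- DCs. S100a8 and S100a9 (10678 FPKM in control WT DCs) made up most of this sum. With the drug in WT DCs none of the 11 markers was past 2-fold higher or lower, against 3.66% and 1.28% of all genes. The treated interval of 1 of the 11, Mmp8, lay above control, near the share of 9.19% over all genes. Mmp8 was at 55.2 and 90.7 FPKM in control and treated WT DCs (log2 0.71, and 0.16 in GEF-H1-/- DCs). Between the control groups, 3 were past 2-fold lower in GEF-H1-/- DCs, against 0.614% of all genes: Ngp, Ltf and Camp (189 against 15.0 FPKM). Past 2-fold higher were 2, Mpo and Elane, against 1.26%. The intervals of Mpo were apart, and those of Elane (0 to 93.1 and 0 to 152 FPKM) overlapped widely. Intervals in GEF-H1-/- DCs were below WT for 4 markers and above for 2 (Mpo and Retnlg), against 1.88% and 2.86% of genes. Retnlg was at 18.6 FPKM in control WT and 36.2 FPKM in control GEF-H1-/- DCs (log2 0.92). The median log2 difference of the 11 markers was 0.10. Clec4d was also higher in control GEF-H1-/- DCs, and the part of neutrophils in its level was not tested.

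Macrophage markers (9 of 10 reached 1 FPKM, all but Marco) summed to 270 FPKM without and 204 with the drug in WT DCs and 407 without and 373 with it in GEF-H1-/- DCs, with Cd68 the most abundant. Of these, C1qa, C1qb and C1qc were past 2-fold higher in control GEF-H1-/- DCs, and Mertk was past 2-fold lower with the drug in WT DCs. Monocyte markers (4 of 5, all but Cx3cr1, led by Ly6c2) summed to 614, 530, 436 and 378 FPKM in the same order. Ccr2 was at 136 FPKM in control and 37.8 FPKM in treated WT DCs, the direction of Clec12a and Clec4a2, receptors that monocytes also express.

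Mast cell and basophil markers (6 of 7, all but Mcpt4, led by Prss34) summed to 198, 225, 361 and 347 FPKM, eosinophil markers (4 of 4, led by Prg2) to 1119, 928, 475 and 444 FPKM, and lymphoid markers (7 of 9, all but Cd4 and Ncr1, led by Gzma) to 105, 121, 46.3 and 42.6 FPKM. Prg2 made up most of the eosinophil sum and Gzma most of the lymphoid sum. No marker of these lists was at 0 in all groups. Hdc, a mast cell and basophil marker, was at 8.70 FPKM without and 29.2 with the drug in WT DCs and 14.4 without and 14.5 with it in GEF-H1-/- DCs (log2 1.64 and 0.01). The log2 changes of the other 5 measured markers of that list ran from -0.53 (Ms4a2) to 0.16 (Mcpt8) in WT DCs. Single markers did not always follow their sum: Siglec5 and Ccr3 were higher in GEF-H1-/- than WT DCs, while the eosinophil sum was lower. The part of cell composition in the receptor values was not tested.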

How the data were processed

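RNA from control and ansamitocin-P3-treated WT and GEF-H1-/- DCs was sequenced by the authors in 8 strand-specific libraries, 2 per group. The deposited FPKM were computed by the authors with Cuffdiff (version 1.05 in the submitters' processing notes, build mm10), as 1 pooled value per gene and group with 95% bounds. The WT columns name no genotype and were assigned by elimination. No column of values was left unused (0). Library depth was not determined, since FPKM does not keep fragment numbers.

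Of 23356 genes, 107 whose Cuffdiff status was not OK were left out, and a filter of 1 FPKM in at least 1 group left 11397. Log2 ratios of FPKM + 1 were computed in Python 3.11.15 with pandas 2.3.3 and numpy 2.4.6, and the computation was tested on simulated data. Pooled values allow no test, and the Cuffdiff interval stands as the error. A range for a difference used the outermost bounds. For a gene with 2 RefSeq promoters (Clec7a), the one nearest the table's gene end was taken. Alternatives were pseudocounts of 0.1 and 5 FPKM, median-ratio rescaling, no filter, a filter of 5 FPKM, and a requirement that intervals be apart.

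The receptors and gene lists were chosen with earlier results of these data known. Named genes were the 8 receptors, the adaptors, Arhgef2, the 3 nearest profiles of each receptor, expressed genes between clustered receptors and, from the other lists, genes past 2-fold, the most abundant gene and defining markers. Further genes named as values (Bcl10, Card9, Syk, Vav3, Klrk1, Flt3, Ciita, Cd209a, Hdc, Siglec5, Mmp8, Cebpa, Cebpd, Srf, Tfeb, Ms4a2, Cpa3 and Mcpt8) were picked after their values were seen. Of the listed genes, Clec2f and Ly6g were not matched, and others were matched through RefSeq synonyms.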

Additional observations from a re-analysis of the deposited data

How the results depend on the processing

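All 120 receptor values recomputed with a pseudocount of 0.1 or 5 FPKM or after median-ratio rescaling kept their sign, and 118 stayed inside the reported range and on their side of 2-fold. The exceptions came with 5 FPKM: the WT drug change of Clec4e was 2.14 and the control difference of Clec4d 0.83, which left 0 receptors past 2-fold there. A larger pseudocount shrinks ratios of low genes by construction. Counts of receptors past 2-fold were otherwise the same with both pseudocounts, after rescaling and, in the direct comparisons, when intervals had also to be apart. Counts over all genes moved more. With the drug in WT DCs, 271 genes were higher with 5 FPKM, and 389 (0.1 FPKM) or 47 (5 FPKM) lower. Giving 0.1 before 5 FPKM throughout, in GEF-H1-/- DCs 150 or 59 were higher and 62 or 18 lower, and 3 genes were lower at 1 FPKM when intervals had also to be apart. Between control groups 239 or 62 were higher and 133 or 39 lower in GEF-H1-/- DCs, and between treated groups 436 or 79 higher and 365 or 127 lower. The drug change was over 1 greater in WT for 91 genes (5 FPKM), and smaller for 163 or 32. Rescaling and the other filters moved no count by over 1.5 times. The stricter promoter patterns, added after seeing the data as was the quadrature range, matched 2 (C/EBP) and 3 (PU.1) receptor promoters in place of 5 each.

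No paired analysis was possible because the table pools the duplicates of each group. For the same reason leaving out a replicate and the replicate block were not run. Low levels, such as those of Clec4d and Clec4e in control WT DCs, also limit the ratios.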

Other observations

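Genes of some transcription factors that act in myeloid cells were higher with the drug. Of 17 that reached 1 FPKM among 18 listed, 8 were past 2-fold higher in WT DCs and none lower, against 3.66% and 1.28% of all genes. In GEF-H1-/- DCs 2 were past 2-fold higher, against 0.807%. The 8 were Cebpb, Irf8, Jun, Junb, Atf3, Rela, Nfkb1 and Hif1a, and the 2 were Irf8 and Jun. The other 9 were within 2-fold in WT DCs, 3 of them lower, from Cebpa (log2 -0.69) to Tfeb (-0.33), and 6 higher, from Cebpd (0.14) to Srf (0.996). Treated WT intervals were above control for 11 of the 17 and below for none, against 9.19% and 7.58% of genes. The median log2 value of the list was 0.996 for WT and 0.36 for GEF-H1-/- DCs. Irf8 was at 18.8 and 96.8 FPKM in control and treated WT and at 24.8 and 103 FPKM in control and treated GEF-H1-/- DCs, so its change was similar in both genotypes. Cebpb was at 92.2 and 305 FPKM in WT and at 137 and 187 FPKM in GEF-H1-/- DCs, the same order of groups as for Clec4d. All 4 values lay above their own Cuffdiff intervals (51.9 to 83.8 FPKM in control and 155 to 248 FPKM in treated WT DCs), so their error is uncertain. The gene of PU.1, the most abundant factor of the list in control WT DCs, was at 279 and 389 FPKM in WT DCs.

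Some ITAM-coupled receptor genes beyond the 8 differed by genotype before treatment. Fcer1a was at 6.3 FPKM in control WT and 33.5 FPKM in control GEF-H1-/- DCs, Lilra6 at 12.98 and 31.8 FPKM, and Sirpb1a at 0.96 and 4.79 FPKM (log2 1.56). Mast cell and basophil markers ran the same way as Fcer1a (sum 198 and 361 FPKM, with Prss34, Ms4a2 and Cpa3 at log2 1.047, 0.97 and 0.80), and their part in it was not tested. Cd300ld was at 1.8 FPKM without and 10.1 with the drug in WT DCs and 7.9 without and 11.1 with it in GEF-H1-/- DCs. Like Clec4d, it was higher both with the drug in WT DCs and without it in GEF-H1-/- DCs.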
